A study of Mus musculus with 4 samples.

Results

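The genes of the proteasome, the complex that degrades ubiquitin-tagged proteins, were followed in ZHBTc4 cells. These are mouse embryonic stem cells whose Oct4 (Pou5f1), which keeps them undifferentiated, comes from a transgene that doxycycline switches off. Members were all non-control probes of the array whose gene name was Psma, Psmb, Psmc, Psmd, Psme, Psmf or Psmg with a number, without the immunoproteasome genes Psmb8 and Psmb9. The rule found 64 probes of 42 genes, of 27962 gene names on the array, and no Psmg gene. By role these were 8 alpha and 8 beta subunits of the core, 6 ATPases, 14 non-ATPase subunits and assembly factors of the regulatory particle, 4 activators and 1 inhibitor. The last gene, Psmc3ip, matches by name only: it encodes a meiotic recombination factor and not a subunit.

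Cells were grown with 2 µg doxycycline and TCP (dox+TCP) or with 2 µg doxycycline alone (dox, titled as the control), for 48 h, with 2 biological replicates each per the labels. TCP is not spelled out in the labels; in work on LSD1, the demethylase in the study's title, it usually stands for tranylcypromine, an LSD1 inhibitor. On all 4 arrays the treated cells were labelled with Cy5 and the reference, ZHBTc4 cells for which no treatment is given, with Cy3. All cells are of 1 line, and had been moved from feeder fibroblasts to gelatin before treatment. No dye swap was made, so a dye effect on a single probe remains in the ratios to the reference; it cancels where dox+TCP is set against dox.

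The core of the proteasome is a barrel of alpha rings, which gate the entrance, around beta rings, which carry the proteolytic sites. A regulatory particle caps the barrel: its ATPase ring unfolds substrates and threads them into the core, and its non-ATPase subunits bind ubiquitin, remove it and hold the particle together. Other caps, the activators, open the core without ATP. Proteasome activity is known to be high in human embryonic stem cells, where PSMD11 supports assembly of the full complex.

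Pou5f1 checked the doxycycline label, and not which arrays had TCP: its log2 ratio of treated over reference was -3.42 and -3.43 in dox+TCP cells and -3.44 and -3.52 in dox cells. Dox+TCP replicate 1 and dox replicate 1 shared a slide, and dox+TCP replicate 2 was scanned on another day than the other 3 arrays. Across genes, the correlation of log2 ratios was 0.844 for the pair of dox+TCP arrays, 0.647 for the pair of dox arrays and 0.873 for the arrays of replicate 1. All 6 ES cell markers were lower in dox cells and 5 of 6 in dox+TCP cells. The reference itself differed between replicates: the summed Cy3 signal of 10 trophoblast markers was 73200 and 453000 on dox+TCP arrays 1 and 2, and 66200 and 507000 on dox arrays 1 and 2. The matching Cy5 sums were 621000 and 571000 in dox+TCP cells and 939000 and 796000 in dox cells. For 11 fibroblast markers, which feeder cells would bring, Cy5 sums were 43000 and 25600 in dox+TCP cells and 20300 and 21000 in dox cells, and the Cy3 sums on the same arrays were 58800, 34000, 59000 and 31600. These sums rest mostly on Vim, whose Cy5 signal was 26700 and 18800 in dox+TCP cells and 11400 and 13900 in dox cells. Col3a1, Postn, Lum and Dcn read at most 286 in either channel. Of the trophoblast markers 1 was called higher in dox+TCP cells and 1 in dox cells, and of the fibroblast markers 1 was higher and 1 lower in dox+TCP cells and 3 were lower in dox cells. Every marker was well above background in both channels on all 4 arrays. The part of these differences in the results below was not tested; values are therefore given per array.

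The comparison of treated cells with the reference asks how proteasome genes stood after Oct4 was shut off, with and without TCP. In dox+TCP cells 8 of 42 members (19%) were lower and 0 higher, against 8.18% of 21572 genes tested called lower and 7.81% called higher (16.0% in either direction). They were Psma5, Psmc1, Psmc2, Psmc4, Psmc5, Psmd3, Psmd7 and Psmd12. In dox cells 4 members (9.52%) were lower and 0 higher, against 7.68% lower and 7.61% higher of all genes (15.3% in either direction), and these were Psma5, Psma8, Psmc1 and Psmd3. The share of members called lower in dox cells is thus near that of all genes. The calls are limma's, at a Benjamini-Hochberg adjusted p under 0.05 over all genes. A call rests on 2 arrays, and fewer cells of a type and less RNA per cell cannot be told apart in such bulk RNA.

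The median log2 ratio of the 42 members was -0.36 in dox+TCP cells, where that of all genes tested was 0.10, and -0.41 in dox cells, where that of all genes was 0.08. Of the members, 34 had a negative fitted ratio in dox+TCP cells and 31 in dox cells. On single arrays the member median was -0.34 and -0.49 in dox+TCP cells and -0.30 and -0.39 in dox cells. It was below 0 on every array, while the median of all genes ran from 0.03 to 0.15. A ratio below 0 on all 4 arrays was found for 26 members (61.9%), against 23.1% of 21517 genes measured on every array, and a ratio above 0 on all 4 for 5 members, against 34.1%. In both channels every member lay above the median tested probe of its array, by 0.96 (Psmf1) to 8.93 (Psmd3) log2 units. The shares over all genes were not matched for brightness, and the part of brightness in the shift was not tested. At an unadjusted p under 0.05 in either direction there were 19 members in dox+TCP cells, against 33.2% of all genes. In dox cells there were 18 members, against 32.9%. Those with a positive ratio were Psme1 in dox+TCP cells, and Psma3, Psmd8 and Psmd10 in dox cells.

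The 2 comparisons share the reference and 1 estimate of the spread, so their calls were not compared. The number of members called depends on the arrays that give the spread. On the group's own arrays alone it was 14 in dox+TCP cells and 1 in dox cells. Leaving out an array of the other group gives this same fit, since the 1 array left there has no spread. With an array of the group itself left out, 1 array remains and calls rest on the other group's spread. For such fits only the member median is reported. The counts over all genes moved as well. On the group's own arrays 2711 genes were higher and 2897 lower in dox+TCP cells, and 950 and 1157 in dox cells. Where ratios were centred on the median without dye normalization, 3 members were lower in dox+TCP cells (Psmc1, Psmc4 and Psmd7) and 2 in dox cells (Psma8 and Psmc1), and the member median in dox cells was -0.12.

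**Figure D1:**
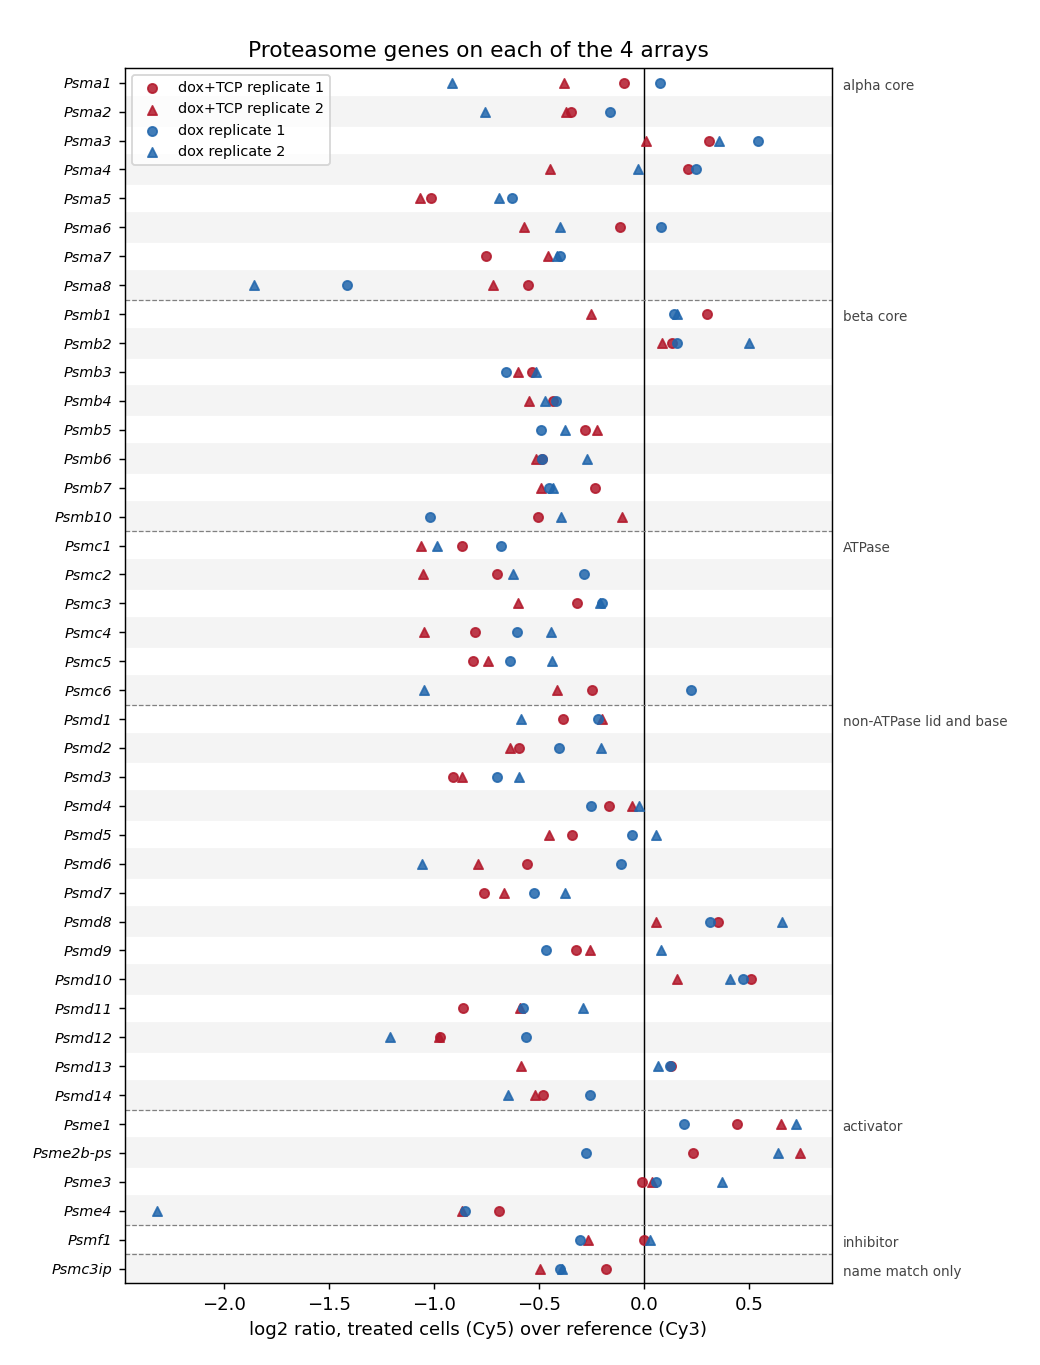
Log2 ratio of treated cells (Cy5) over the reference (Cy3) for each of the 42 genes, 1 point per array; red is dox+TCP, blue is dox, circles are replicate 1 and triangles replicate 2, and dashed lines part the classes. Most points lie left of 0, among them all 4 of Psma5, Psmc1, Psmc4, Psmd3 and Psmd7, and those of Psme1 lie right of it.

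Among the alpha subunits, Psma5 was the lowest in dox+TCP cells. It builds the alpha ring, and its probe lies at chr3:108098124-108098183 on the plus strand of mm7. Its Cy5 signal was 101000 and 68100 in dox+TCP cells and 120000 and 120000 in dox cells, against Cy3 signals of 203000, 143000, 185000 and 194000 in the reference on the same arrays. The reference was brighter on all 4 arrays. Its log2 ratios were -1.01 and -1.06 in dox+TCP cells and -0.63 and -0.69 in dox cells, so that the 2 groups did not overlap. Of 21517 genes, 14.8% had both dox+TCP values below both dox values and 14.7% had both above. The fitted ratio of Psma5 was -1.04 ± 0.14 (SE, n = 2) in dox+TCP cells, 0.487 times the reference, with an adjusted p of 0.0181 by limma. In dox cells it was -0.66 ± 0.14 (SE, n = 2), 0.632 times the reference, with an adjusted p of 0.0458 by limma. With median centring in place of dye normalization neither call held. The values were -0.67 (adjusted p 0.0629 by limma) in dox+TCP cells and -0.21 (adjusted p 0.439 by limma) in dox cells. On the dox arrays alone the call of Psma5 in dox cells was lost (adjusted p 0.154 by limma).

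Psma8 encodes the alpha subunit that male germ cells use in place of Psma7. Its Cy5 signal was 5620 and 2810 in dox+TCP cells and 3120 and 1730 in dox cells, against Cy3 signals of 8260, 4630, 8330 and 6270 in the reference. The log2 ratios were -0.56 and -0.72 in dox+TCP cells and -1.42 and -1.86 in dox cells, again with no overlap. In dox cells Psma8 fell, to 0.322 times the reference (log2 -1.64 ± 0.18, SE, n = 2, adjusted p 0.0109 by limma). In dox+TCP cells the value was -0.64 ± 0.18 (SE, n = 2) and did not pass, with an adjusted p of 0.0784 by limma. Its somatic counterpart Psma7 had -0.75 and -0.46 in dox+TCP cells and -0.40 and -0.42 in dox cells, and passed in neither. The highest alpha subunit was Psma3, at 0.31 and 0.01 in dox+TCP cells and 0.54 and 0.36 in dox cells, also not past the threshold. Over the 8 alpha subunits the median was -0.35 in dox+TCP cells and -0.41 in dox cells.

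Of the 8 beta subunits, 0 passed in either group. Psmb3 passed in dox+TCP cells on that group's own arrays (adjusted p 0.0444 by limma). Psmb5 passed in dox cells with normexp and loess (adjusted p 0.0322 by limma). It also passed there with loess and no background subtraction (adjusted p 0.0339 by limma). Psmb5, Psmb6 and Psmb7 carry the standard proteolytic sites, chymotrypsin-like, caspase-like and trypsin-like in that order. Psmb5 had log2 ratios of -0.28 and -0.23 in dox+TCP cells and -0.49 and -0.38 in dox cells. Psmb6 had -0.48 and -0.52 in dox+TCP cells and -0.49 and -0.27 in dox cells. Psmb7 had -0.23 and -0.49 in dox+TCP cells and -0.45 and -0.43 in dox cells. All 12 of these values were negative, and their medians over the 3 genes were -0.36 in dox+TCP cells and -0.43 in dox cells. Psmb10, the interferon-inducible counterpart of Psmb7, had -0.50 and -0.10 in dox+TCP cells and -1.02 and -0.39 in dox cells. Its Cy5 signal was 12400 and 9710 in dox+TCP cells and 8610 and 12900 in dox cells, against Cy3 signals of 17600, 10400, 17500 and 16900 in the reference. The groups overlapped, and the adjusted p by limma was 0.391 in dox+TCP cells and 0.101 in dox cells.

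The structural beta subunits Psmb1 to Psmb4 were divided in sign. Psmb3 was at -0.54 and -0.60 in dox+TCP cells and -0.66 and -0.51 in dox cells, the lowest fitted value of the class in dox+TCP cells, and missed the threshold at an adjusted p of 0.0659 and 0.0631 by limma. Psmb2 was highest, at 0.13 and 0.09 in dox+TCP cells and 0.16 and 0.50 in dox cells, and did not pass either. The class medians per array were close to each other, at -0.36 and -0.37 in dox+TCP cells and -0.47 and -0.39 in dox cells.

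**Figure D2:**
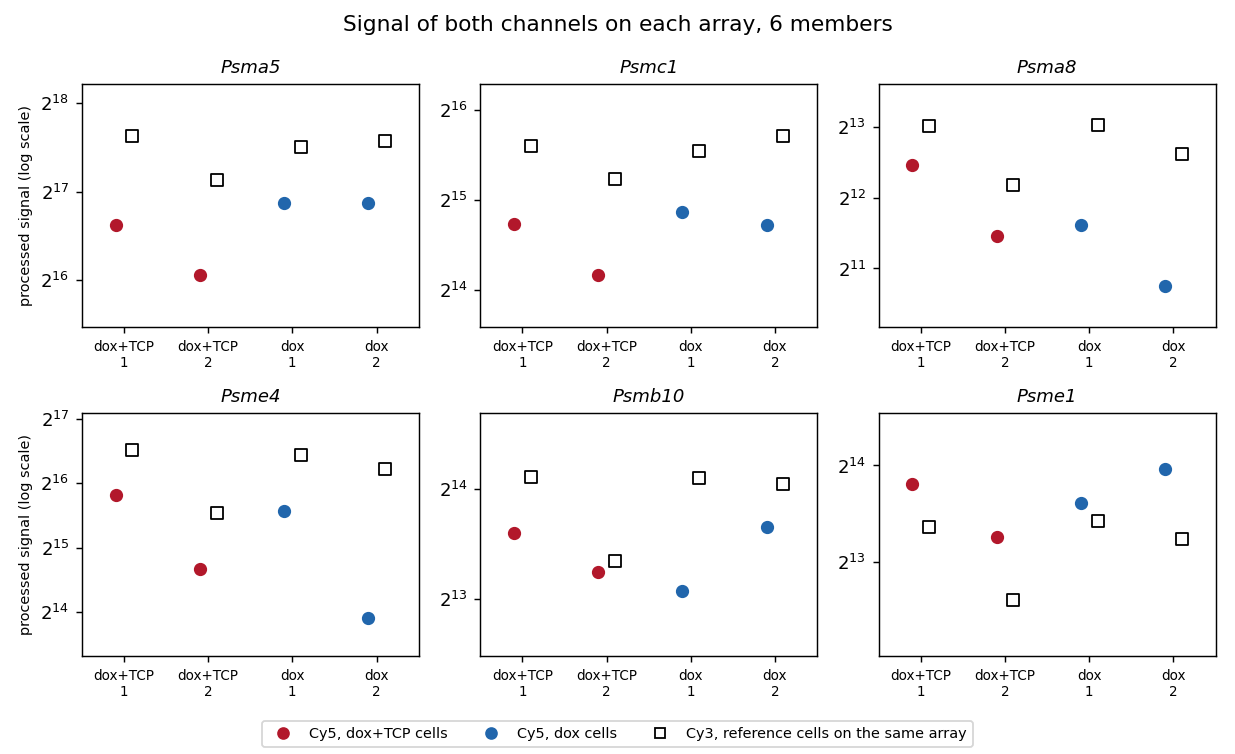
Processed signal of Cy5 (filled circles, red for dox+TCP cells and blue for dox cells) and Cy3 (open squares, the reference on the same array) for 6 members, on a log scale, 1 pair per array. For Psma5, Psmc1, Psma8, Psme4 and Psmb10 each Cy5 point lies below its Cy3 square, and for Psme1 each lies above it.

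The ATPases form the ring that unfolds substrates, and in dox+TCP cells they had the largest share of called members of the classes. There 4 of 6 fell, Psmc1, Psmc2, Psmc4 and Psmc5, and in dox cells Psmc1 alone did. Over all genes 8.18% were called lower in dox+TCP cells and 7.68% in dox cells. All 6 ATPases had a negative fitted ratio in both groups, with medians of -0.83 in dox+TCP cells and -0.49 in dox cells. The per-array medians were -0.75 and -0.90 in dox+TCP cells and -0.45 and -0.54 in dox cells.

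Psmc1, whose tail opens the gate of the core in yeast, was lower in dox+TCP cells and in dox cells. Its probe lies at chr12:97618413-97618472 on the plus strand of mm7. The Cy5 signal was 27300 and 18500 in dox+TCP cells and 30000 and 27100 in dox cells, against Cy3 signals of 49800, 38500, 48100 and 53700 in the reference. The log2 ratios were -0.87 and -1.06 in dox+TCP cells and -0.68 and -0.98 in dox cells, and the groups overlapped. The fitted ratio was -0.96 ± 0.17 (SE, n = 2), or 0.513 times the reference, in dox+TCP cells with an adjusted p of 0.0274 by limma. In dox cells it was -0.83 ± 0.17 (SE, n = 2), or 0.561 times, with an adjusted p of 0.0368 by limma. On the dox arrays alone the call of Psmc1 in dox cells was lost (adjusted p 0.0976 by limma).

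Psmc4 had log2 ratios of -0.80 and -1.05 in dox+TCP cells and -0.60 and -0.45 in dox cells. Psmc2 had -0.70 and -1.05 in dox+TCP cells and -0.29 and -0.62 in dox cells. Psmc5 had -0.81 and -0.74 in dox+TCP cells and -0.64 and -0.44 in dox cells. For each of these 3 ring subunits both dox+TCP values lay below both dox values, as they did for 14.8% of 21517 genes. The fall in dox+TCP cells was to 0.526 times the reference for Psmc4, 0.545 times for Psmc2 and 0.583 times for Psmc5, with adjusted p of 0.0272, 0.0401 and 0.0351 by limma. In dox cells their adjusted p by limma ran from 0.0801 to 0.162. A second probe for Psmc2 read -0.20 in dox+TCP cells. It is listed under another transcript and was far dimmer, with a mean log2 signal of 8.9 against 15.9. The second probes for Psmc4 and Psmc5 read -0.94 and -1.31 in dox+TCP cells. Psmc2's call was lost with normexp and loess (adjusted p 0.0526 by limma) and with the mean of its probes (adjusted p 0.0846 by limma). With median centring the calls of Psmc2 and Psmc5 were lost (adjusted p 0.0708 and 0.0555 by limma).

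The remaining ATPases did not pass. Psmc3 had -0.32 and -0.60 in dox+TCP cells and -0.20 and -0.21 in dox cells. Psmc6 had -0.25 and -0.42 in dox+TCP cells and 0.22 and -1.05 in dox cells, the widest gap between replicates of the class. Psmc6's second, dimmer probe read -1.22 in dox+TCP cells and -1.09 in dox cells.

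Promoter sequence was available for 34 of the 42 genes, in 36 windows of RefSeq on GRCm38.p6, and was searched on both strands in the 250 bases before the start. The motifs were chosen with the values known. The ETS core CCGGAAG stood in 36.1% of the members' windows, in 12 genes, against 6.91% of all 32851 windows of this length. CCAAT, the NF-Y box, stood in 36.1% against 33.8%, and the core of the antioxidant response element that Nfe2l1 and Nfe2l2 bind, TGANNNNGC, in 36.1% against 35.2%. The AP-1 site TGACTCA, the joint form TGACTCAGC, which also matches TGANNNNGC, and the nuclear respiratory factor site GCGCATGCG stood in 2.78%, 0% and 2.78% of the members' windows, against 4.46%, 0.39% and 1.45% of all. Windows were available for 6 genes called in either group. Of these, 3 held CCGGAAG: Psmc1, Psmc2 and Psmd12, all called in dox+TCP cells. Members not called, such as Psmd4 and Psme3, and the non-subunit Psmc3ip held it too. The windows of Psmc1, Psmc2 and Psmd12 are shown, 5′ to 3′ in the direction of the gene. Capitals mark the ETS core, the NF-Y box and the antioxidant core on either strand; the ETS core reads CTTCCGG where it lies on the opposite one. Psmc2 has 2 annotated starts.
Psmc1 chr12:100109952-100110201 (+ strand): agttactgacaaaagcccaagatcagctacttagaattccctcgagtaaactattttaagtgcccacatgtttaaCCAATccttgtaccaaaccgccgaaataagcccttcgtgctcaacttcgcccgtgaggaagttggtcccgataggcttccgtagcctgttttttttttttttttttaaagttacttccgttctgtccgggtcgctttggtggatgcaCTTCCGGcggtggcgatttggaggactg
Psmc2 chr5:21785025-21785274 (+ strand): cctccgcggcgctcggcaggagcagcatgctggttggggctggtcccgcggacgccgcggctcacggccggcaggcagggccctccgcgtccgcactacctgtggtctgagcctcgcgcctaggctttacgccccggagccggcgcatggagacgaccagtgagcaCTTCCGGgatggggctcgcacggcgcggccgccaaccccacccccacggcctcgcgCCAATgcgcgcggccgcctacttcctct
Psmc2 chr5:21786497-21786746 (+ strand): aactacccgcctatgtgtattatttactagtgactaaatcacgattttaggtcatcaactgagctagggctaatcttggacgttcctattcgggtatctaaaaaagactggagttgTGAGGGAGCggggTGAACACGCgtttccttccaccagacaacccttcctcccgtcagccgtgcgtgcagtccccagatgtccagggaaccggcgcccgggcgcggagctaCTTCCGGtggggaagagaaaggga
Psmd12 chr11:107479278-107479527 (+ strand): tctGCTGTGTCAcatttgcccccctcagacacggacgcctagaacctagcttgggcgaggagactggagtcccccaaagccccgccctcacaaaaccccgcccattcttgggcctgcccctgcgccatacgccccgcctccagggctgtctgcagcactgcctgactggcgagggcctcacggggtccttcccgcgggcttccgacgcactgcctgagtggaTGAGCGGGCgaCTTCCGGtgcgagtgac
In Psmc1, Psmd12 and the downstream window of Psmc2, the ETS core lies close to the start, beginning at -28, -17 and -24 in that order. In the upstream window of Psmc2 it begins at -84. A match is a run of letters and does not show that a factor binds there.

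The 14 Psmd genes comprise 8 lid subunits, 3 base scaffolds or receptors (Psmd1, Psmd2, Psmd4) and 3 assembly chaperones of the base (Psmd5, Psmd9, Psmd10). In dox+TCP cells 3 of the lid subunits fell, Psmd3, Psmd7 and Psmd12, and in dox cells Psmd3 did. Over all genes the shares called lower were 8.18% and 7.68% in that order. The median of the lid was -0.70 in dox+TCP cells and -0.45 in dox cells. That of the base scaffolds and receptor was -0.29 in dox+TCP cells and -0.30 in dox cells, and that of the chaperones -0.29 in dox+TCP cells and 0.00 in dox cells.

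Psmd3, a scaffold of the lid, had Cy5 signals of 136000 and 124000 in dox+TCP cells and 143000 and 158000 in dox cells, against Cy3 signals of 255000, 227000, 232000 and 238000 in the reference. Each treated value lay below every reference value. The log2 ratios were -0.91 and -0.87 in dox+TCP cells and -0.70 and -0.59 in dox cells, without overlap, an order found for 14.8% of 21517 genes. The fitted ratio was -0.89 ± 0.14 (SE, n = 2) in dox+TCP cells, 0.54 times the reference, with an adjusted p of 0.0249 by limma. In dox cells it was -0.65 ± 0.14 (SE, n = 2), 0.638 times, with an adjusted p of 0.0486 by limma. With median centring in place of dye normalization both calls were lost. The values were -0.35 (adjusted p 0.25 by limma) in dox+TCP cells and -0.11 (adjusted p 0.739 by limma) in dox cells. On the dox arrays alone the call of Psmd3 in dox cells was lost (adjusted p 0.162 by limma).

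Psmd12, another scaffold of the lid, had log2 ratios of -0.97 and -0.97 in dox+TCP cells and -0.56 and -1.21 in dox cells. It fell to 0.51 times the reference in dox+TCP cells (adjusted p 0.0424 by limma) and stood at 0.541 times in dox cells, where it missed the threshold (adjusted p 0.0534 by limma). The groups overlapped. Its other 2 tested probes read -0.56 and -0.52 in dox+TCP cells, and 0.04 and -0.55 in dox cells in the same order. Psmd12's call was lost with normexp and loess and with median centring (adjusted p 0.0669 and 0.0598 by limma). Psmd7, the partner of the lid's deubiquitinase, had -0.76 and -0.67 in dox+TCP cells and -0.53 and -0.38 in dox cells. It fell to 0.609 times the reference in dox+TCP cells (adjusted p 0.0405 by limma). The groups did not overlap, with dox+TCP lower, as for 14.8% of 21517 genes. One of its 3 probes had the opposite sign in dox+TCP cells, at 0.18, so the call belongs to the brightest probe and not to every probe of the gene.

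Psmd11, named above for its part in human stem cells, had log2 ratios of -0.86 and -0.59 in dox+TCP cells and -0.58 and -0.29 in dox cells. Both dox+TCP values lay below both dox values, as for 14.8% of 21517 genes. The adjusted p against the reference by limma was 0.0519 in dox+TCP cells and 0.157 in dox cells. In dox+TCP cells the outcome for Psmd11 depended on the setting. It passed with normexp and loess and on that group's own arrays (adjusted p 0.0496 and 0.0369 by limma). It did not pass with median centring (adjusted p 0.173 by limma). Psmd14, the deubiquitinase of the lid, had -0.48 and -0.52 in dox+TCP cells and -0.26 and -0.65 in dox cells. Its adjusted p was 0.116 and 0.142 by limma. A second probe for Psmd14 read -0.38 in dox+TCP cells and had the opposite sign in dox cells, at 0.11. Psmd4, the ubiquitin receptor of the base, stood nearer to 0, at -0.17 and -0.06 in dox+TCP cells and -0.26 and -0.02 in dox cells.

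Psmd10 and Psmd8 were positive on all 4 arrays. Psmd10, a chaperone also known as gankyrin, had 0.51 and 0.16 in dox+TCP cells and 0.47 and 0.41 in dox cells. Psmd8, a lid subunit, had 0.35 and 0.06 in dox+TCP cells and 0.31 and 0.66 in dox cells. Neither passed.

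**Figure D3:**
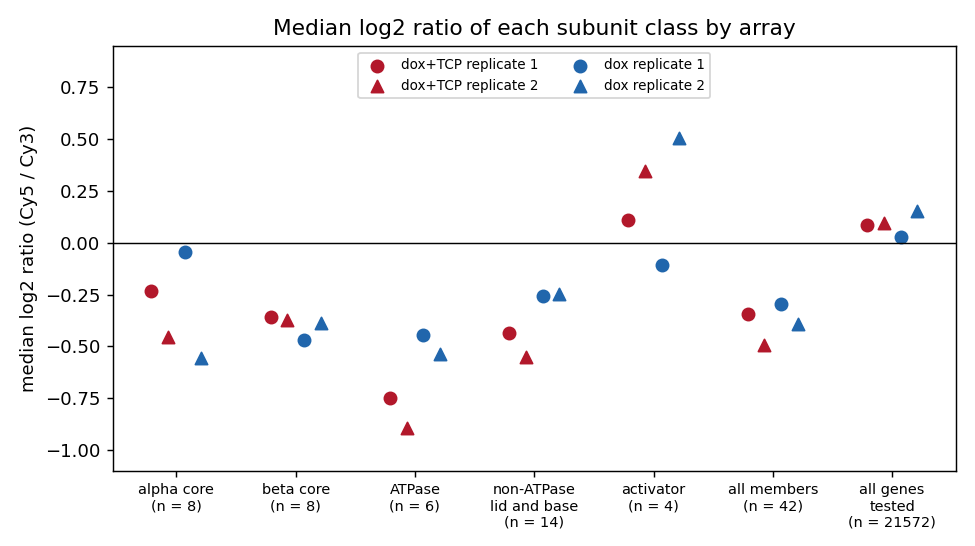
Median log2 ratio (Cy5 over Cy3) of each class of members, of all 42 members and of all 21572 genes tested, 1 point per array; red is dox+TCP, blue is dox, circles are replicate 1 and triangles replicate 2. The ATPases lie between -0.90 and -0.45, lowest of the classes on both dox+TCP arrays, and the activators lie above 0 on 3 of the 4 arrays.

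The 4 activators differed in sign, and 0 passed in either group. Psme1 and Psme2 form the interferon-inducible cap, Psme3 a nuclear cap, and Psme4 a cap linked to the breakdown of acetylated histones. The 2 probes named for the pseudogene Psme2b-ps also list the Psme2 transcript, so these genes cannot be told apart here. Psme1 had Cy5 signals of 14300 and 9780 in dox+TCP cells and 12500 and 16000 in dox cells, against Cy3 signals of 10500, 6220, 11000 and 9670 in the reference. Treated cells were the brighter on each array, with log2 ratios of 0.44 and 0.65 in dox+TCP cells and 0.19 and 0.73 in dox cells. The adjusted p by limma was 0.129 in dox+TCP cells and 0.183 in dox cells, so the difference did not pass. Psme2b-ps had 0.23 and 0.74 in dox+TCP cells and -0.28 and 0.64 in dox cells, which overlap, and Psme3 lay near 0, at -0.01 and 0.04 in dox+TCP cells and 0.06 and 0.37 in dox cells.

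Psme4 stood apart from the other caps. Its Cy5 signal was 57800 and 26000 in dox+TCP cells and 48800 and 15300 in dox cells, against Cy3 signals of 93300, 47400, 88300 and 76300 in the reference. The log2 ratios were -0.69 and -0.87 in dox+TCP cells and -0.85 and -2.32 in dox cells, with dox replicate 2 well below the other 3 arrays. The fitted ratio was -0.78 ± 0.37 (SE, n = 2) in dox+TCP cells, with an adjusted p of 0.215 by limma. In dox cells it was -1.59 ± 0.37 (SE, n = 2), with an adjusted p of 0.0522 by limma, which missed the threshold. Without dox replicate 2 the value in dox cells was -0.85, and without dox replicate 1 it was -2.32, each on 1 dox array. The fit shares 1 spread between the groups. On the dox+TCP arrays alone the adjusted p of Psme4 in dox+TCP cells was 0.0281 by limma, which passed. On the dox arrays alone that in dox cells was 0.0596 by limma. All 3 tested Psme4 probes were negative, from -0.78 to -0.57 in dox+TCP cells and from -1.59 to -1.01 in dox cells.

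The inhibitor Psmf1 had log2 ratios of 0.00 and -0.27 in dox+TCP cells and -0.31 and 0.03 in dox cells. Psmc3ip, no subunit, had -0.18 and -0.50 in dox+TCP cells and -0.40 and -0.39 in dox cells. Neither passed. Psmf1 has 3 tested probes, and the lowest read -0.97 in dox+TCP cells and -0.71 in dox cells.

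**Figure D4:**
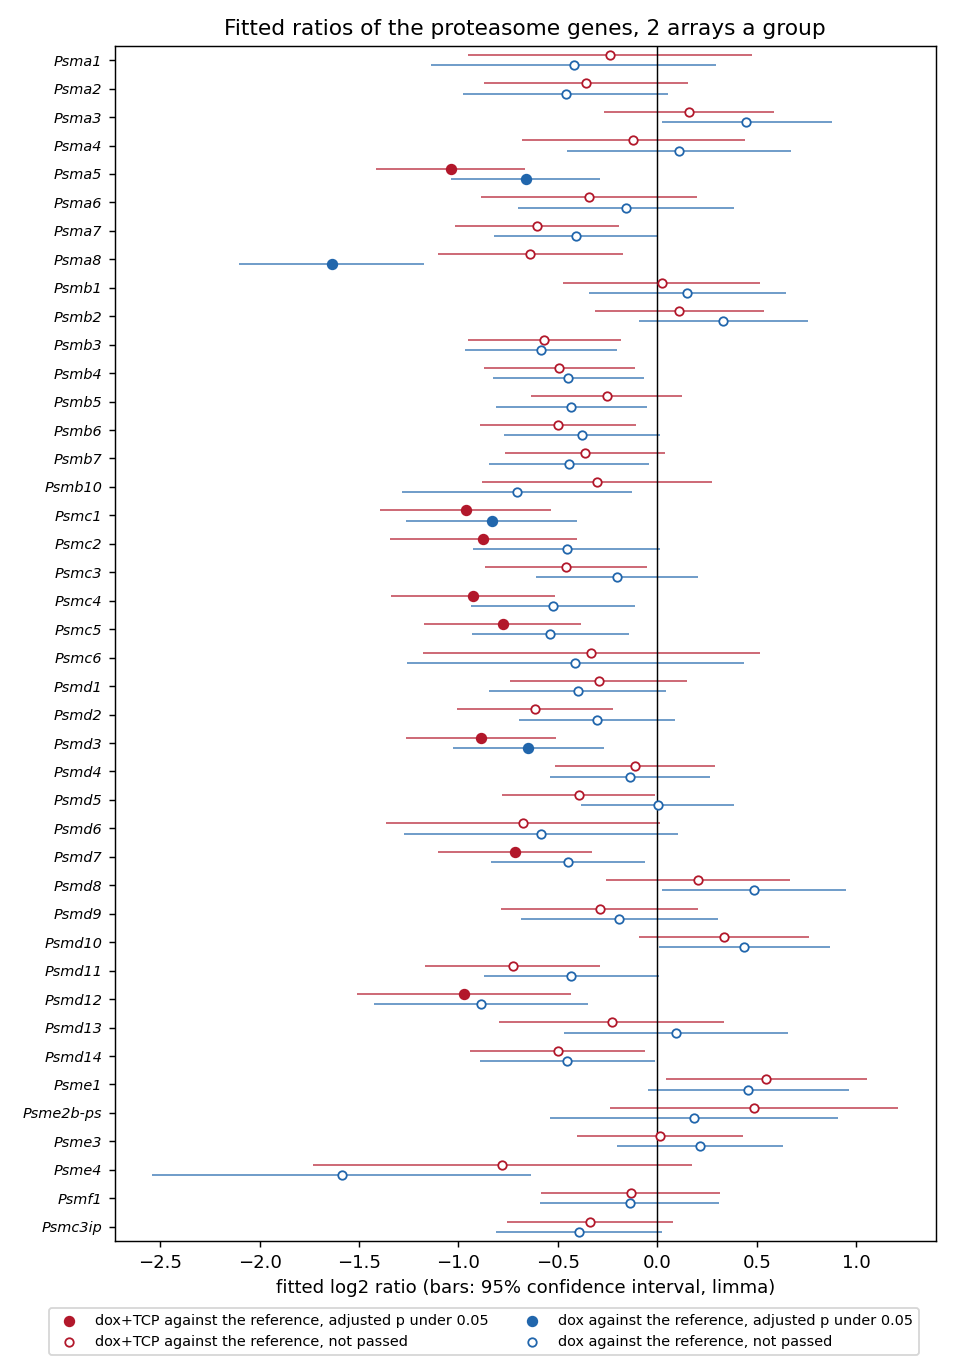
Fitted log2 ratio against the reference for each member with its 95% confidence interval by limma (n = 2 arrays a group); red is dox+TCP and blue is dox, and filled points passed an adjusted p of 0.05. Filled points number 8 in dox+TCP cells and 4 in dox cells, all to the left of 0.

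Genes around the proteasome were counted from a list of 30 receptors, shuttles, ubiquitin genes, assembly factors and regulators, of which 27 were tested. In dox+TCP cells 0 were higher and 2 lower, and in dox cells 1 was higher and 2 lower, with list medians of 0.01 and -0.11. Of all genes, 8.18% were called lower in dox+TCP cells and 7.68% in dox cells, so 2 of 27 (7.41%) is a share near the background. Ubqln4, which carries ubiquitinated proteins to the proteasome, had log2 ratios of -1.30 and -1.42 in dox+TCP cells and -1.40 and -0.90 in dox cells, and fell in both (adjusted p 0.0171 and 0.0228 by limma). Ddi2, the protease that activates the proteasome gene regulator Nfe2l1, had -1.37 and -1.30 in dox+TCP cells and -0.82 and -1.32 in dox cells, and also fell in both (adjusted p 0.018 and 0.0272 by limma). Both were below the reference on all 4 arrays.

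The shuttle Ubqln1 had 0.52 and 1.02 in dox+TCP cells and 1.07 and 1.05 in dox cells. It rose in dox cells, with an adjusted p of 0.0272 by limma, and missed the threshold in dox+TCP cells at 0.055. Nfe2l1 itself had 0.48 and 1.01 in dox+TCP cells and 0.48 and 1.29 in dox cells and did not pass (adjusted p 0.129 and 0.091 by limma).

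The comparison of dox+TCP with dox asks what TCP added. By limma 0 of 42 members were called, and 0% of all genes tested were called in either direction. At an unadjusted p under 0.05 there was 1 member, Psma8, against 3.22% of all genes. Its log2 ratio was 1.00 higher in dox+TCP than in dox cells, with a 95% confidence interval from 0.34 to 1.66, an unadjusted p of 0.0117 and an adjusted p of 1 by limma. By channel, on the log2 scale and relative to the array, Psma8 differed by 0.84 in Cy5 and by -0.15 in Cy3.

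The median difference over the members was -0.11, against 0.02 over all genes, with 27 members negative and 15 positive. It was -0.09 within slide 1, which holds replicate 1 of both groups, and -0.21 between the replicate 2 arrays, and -0.02 when dox+TCP replicate 2 was left out. The dox+TCP values lay below both dox values for 14 members (33.3%), against 14.8% of 21517 genes, and above both for 2 (4.76%), Psma8 and Psmb5, against 14.7%. The 14 were Psma3, Psma5, Psma7, Psmb2, Psmc2, Psmc3, Psmc4, Psmc5, Psmd2, Psmd3, Psmd5, Psmd7, Psmd11 and Psme3. The fitted difference was negative for all 8 lid subunits, from -0.32 to -0.05, and for 5 of 6 ATPases, with a class median of -0.25, while 53.4% of all genes had a positive one. The replicates did not all share the sign: Psmd6, Psmd12 and Psmd14 were higher in dox+TCP than in dox cells on the replicate 2 arrays, and Psmd8 and Psmd13 on the replicate 1 arrays.

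Of the 42 confidence intervals, 41 included 0 and 32 lay within -1 and 1 on the log2 scale. The lowest difference was that of Psmc2, at -0.42 with an interval from -1.08 to 0.25. Psmb10 stood at 0.40 with an interval from -0.41 to 1.22, and Psme4 at 0.81 with one from -0.54 to 2.15. For Psmc1 the difference was -0.13, with an interval from -0.74 to 0.48.

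**Figure D5:**
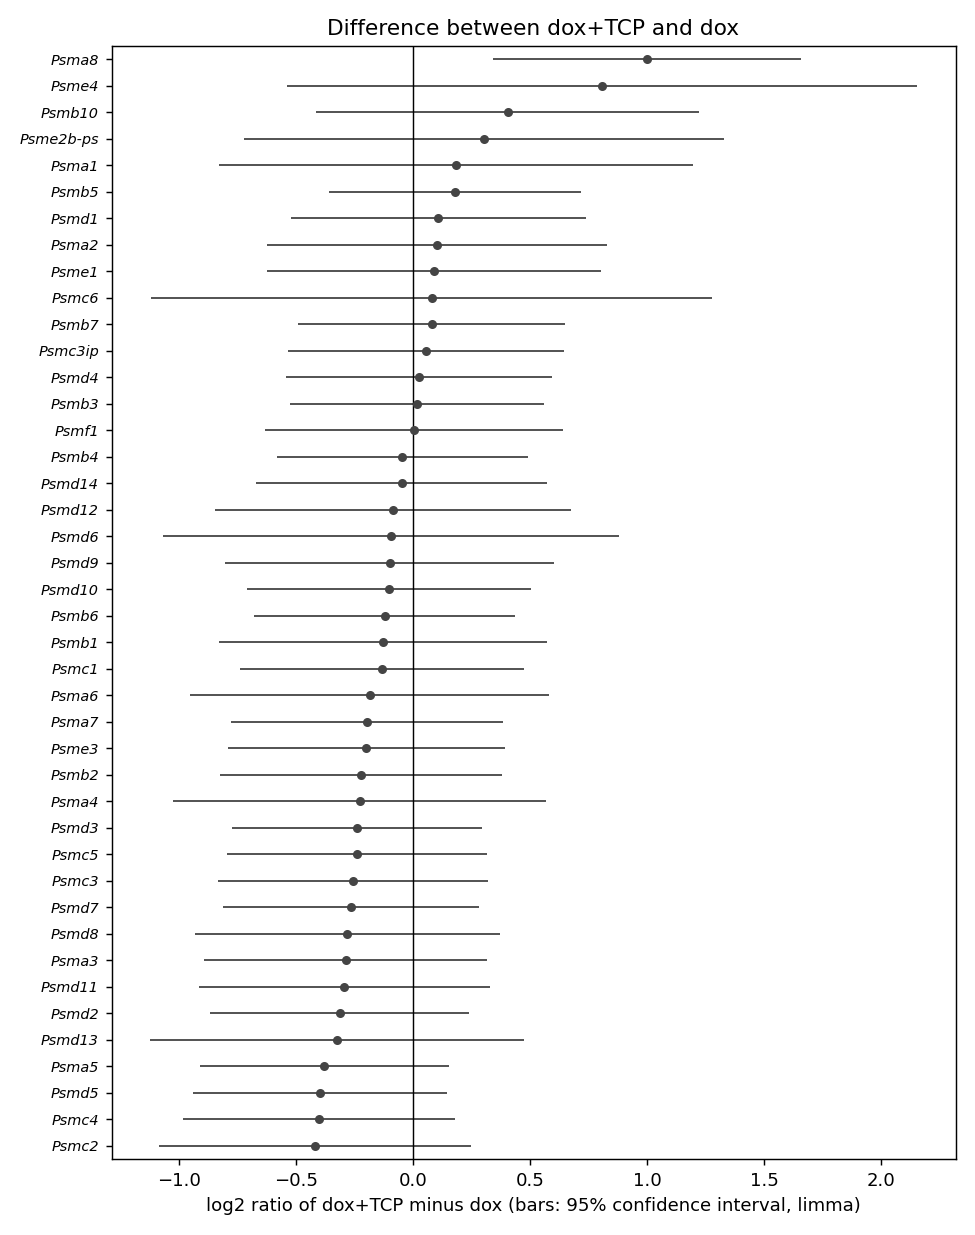
Log2 ratio of dox+TCP minus that of dox for each member, ordered by size, with its 95% confidence interval by limma (n = 2 arrays a group). The interval of Psma8, from 0.34 to 1.66, lies above 0 and the other 41 cross it.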

How the data were processed

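Total RNA of ZHBTc4 cells was hybridised to 4 Agilent arrays (design 014868) in 2 colours. Spot intensities came from Agilent Feature Extraction 10.1.1.1, with probes placed on mm7, per the file headers. The deposited log10 ratios of Cy5 over Cy3 had been corrected for background and dye within the same program, per the file headers; the deposited series matrix matched them within 0.005 for each of 45018 spots, with column medians of 0, 0, 0 and 0.0111. Any other step is not given in the sources used here.

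The ratios were put on the log2 scale. The 1639 control spots were left out, outlier spots were set to missing and spots of 1 probe averaged. Testing required a signal well above background in Cy5 on each array of at least 1 group, or in Cy3 on all 4, and a gene, by its name in the files, was represented by its brightest tested probe, which gave 21572 genes. All 42 members were tested, from probes well above background in both channels on all 4 arrays; 16 have more than 1 tested probe. limma 3.58.1 in R 4.3.3 fitted a mean per group over all 4 arrays (2 residual and 2.8 prior degrees of freedom) with eBayes and Benjamini-Hochberg adjustment over all genes. The number of arrays limits the precision. The fit was tested on simulated data.

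Members, lists and motifs were chosen with earlier results of these data known. All members were counted by class; called ones, class extremes and the main catalytic, receptor and activator subunits were named. A gene of the pathway list is not reported here. Alternatives were normexp (offset 50) with loess, loess without background subtraction, median centring, no filter on dim probes, the mean of a gene's probes, the series matrix, each group's own arrays, each array left out and the replicate number as a block.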

Additional observations from a re-analysis of the deposited data

How the results depend on the processing

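Among members, 8 were lower in dox+TCP cells. The number was 3 with median centring, 0 with no filter on dim probes, 14 with the replicate block and 14 on the group's own arrays. Leaving out either dox array gave the fit on the dox+TCP arrays alone. With each array left out the member median ran from -0.49 to -0.34. In dox cells 4 were lower. The number was 8 with normexp and loess, 8 with no background subtraction, 2 with median centring, 0 with no filter on dim probes, 8 with the replicate block and 1 on the group's own arrays. With each array left out it ran from 1 to 6, and the member median from -0.41 to -0.30; the median was -0.12 with median centring. With no filter, 0 of all genes were called in either comparison; the cause was not tested. Over all genes, calls in dox+TCP cells were 1685 higher and 1765 lower, and 1327 and 1821 with median centring; in dox cells they were 1642 and 1656, and 1356 and 1778 with normexp and loess. No member was called between dox+TCP and dox under any alternative run, and no named value changed sign with a call. The replicate numbers come with no stated shared batch; replicate differences of the groups correlated at 0.447 over genes, and the block is reported only here. Slide and scan day as random blocks could not be fitted with 2 residual degrees of freedom; the values within slide 1 and without dox+TCP replicate 2 stand in the text.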
